A study of Oryza sativa Japonica Group with 96 samples.

Results

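This account is about 50 array features, out of 36643 measured in rice stem bases, whose expression, set against that at 0 h, was higher on average over 27 to 45 h after a 5 h pulse of dexamethasone in a line with an inducible CRL1 gene (DXC) than in a control line without it (DX). They were chosen from the measured values. For each feature and hour, the net difference was the mean log2 level of DXC minus that of DX, minus the same quantity at 0 h. A feature had to have a mean net difference of 0.5 or more over 27 to 45 h and a DXC level above the DX level over those hours. 1347 features, 3.68% of all, met both conditions, and the 50 with the largest mean net difference over 6 to 24 h were taken. Of the 50, 32 had a gene symbol and 18 had none and are given by feature number.

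Both lines were the crl1 mutant of the cultivar Taichung 65, which lacks crown roots. DXC carried the CRL1 gene in the dexamethasone-responsive vector pINDEX2 and was a single transgenic line, called DXC3 in the submitters' earlier work. DX carried the same vector empty. Seedlings of both lines were given 1 µM dexamethasone, and the medium was renewed after 5 h, so DX also went through the inducer and the change of medium. Samples, each of several pooled stem bases, were taken at 16 times, 3 h apart, and the whole course was run in 3 experiments done independently of each other, so there were 3 arrays per line and hour and 96 arrays in all. In such bulk samples, more cells that express a gene and more RNA per cell cannot be told apart.

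CRL1 encodes a transcription factor of the plant-specific LATERAL ORGAN BOUNDARIES domain family. In rice it acts downstream of auxin, a hormone that frees auxin response factors from their Aux/IAA repressors, and it is needed for crown root primordia to form at the stem base. In the inducible vector, dexamethasone lets a chimeric transcription factor reach the nucleus and switch on the gene placed behind its target promoter. No feature could be tied to CRL1 by the annotation used here, so the transgene's own course was not analysed here.

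The features as a group were highest at 6 and 9 h, dropped most between 9 and 12 h, and were still above their 0 h difference at 45 h. Their median net difference was 0.72 on the log2 scale at 3 h, 2.07 at 6 h and 2.10 at 9 h. It was 1.37 at 12 h, 1.41 at 21 h and 1.08 at 24 h. It was 1.13 at 27 h, 0.88 at 36 h and 0.88 at 45 h, while the median over all 36643 features lay between -0.03 and 0.02 at every hour. The median line difference itself, with no 0 h value subtracted, was -0.32 at 0 h, 1.79 at 9 h and 0.48 at 45 h. These values describe the selection and carry no test, since every hour from 6 to 45 h and 0 h entered the choice.

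**Figure D1:**
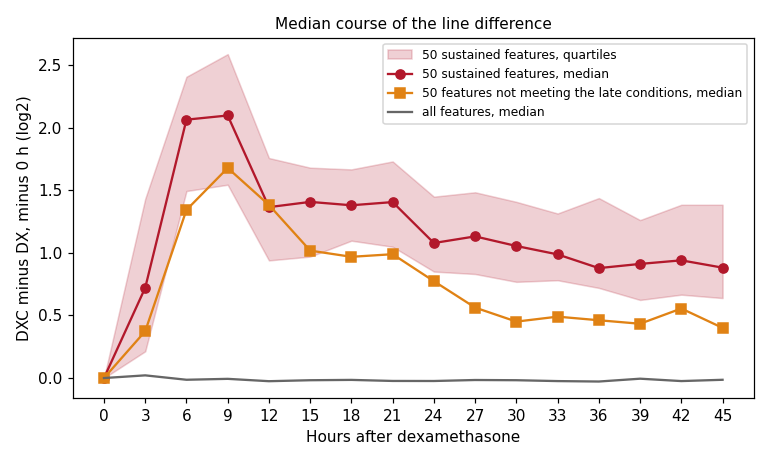
The median net difference (DXC minus DX, minus 0 h, log2) is plotted against hours after dexamethasone for the 50 sustained features with their quartiles, for 50 features that changed most at 6 to 24 h without meeting the late conditions, and for all features. The sustained features stood at 2.10 at 9 h and 0.88 at 45 h, the comparison features at 1.68 and 0.40, and all features near 0.

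Onset was taken as the first hour at which the net difference reached 50% of its highest value over 3 to 45 h. It was 3 h in 15 features, 6 h in 29, 9 h in 2 and 12 h in 4. The 0 h difference enters the net difference at every hour, so an early onset need not mean that DXC was above DX. Feature 16338993 counted as onset at 3 h with line differences of -0.30, -0.98 and -0.61 at 3, 6 and 9 h. The highest value came at 6 h in 16 features and at 9 h in 20, thus in 36 of 50 at these 2 hours, and in 7 at 27 h or later. All 50 peaked after the inducer had been removed, but the rule ranked on 6 to 24 h. Of the hours searched for a peak, only 3 h came before the removal. A decay to 50% of the peak, counted where the next hour was also at or below it, or at 45 h alone, was reached in 40 features, in 2 of them at 45 h. It came between 12 and 24 h in 26 of them and between 27 and 45 h in 14, and 10 features had not reached it.

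At 45 h the net difference was still 0.5 or more in 43 features and 1 or more in 22. Persistence, the mean net difference over 27 to 45 h divided by that over 6 to 24 h, had a median of 0.68 and ran from 0.24 to 1.66. It was 1 or more in 10 features and under 0.5 in 11. Taken in each experiment alone, the median persistence was 0.53, 0.68 and 0.66. The mean net difference over 6 to 24 h ran from 1.09 to 4.60 with a median of 1.41, and that over 27 to 45 h from 0.58 to 2.80 with a median of 0.95.

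**Figure D2:**
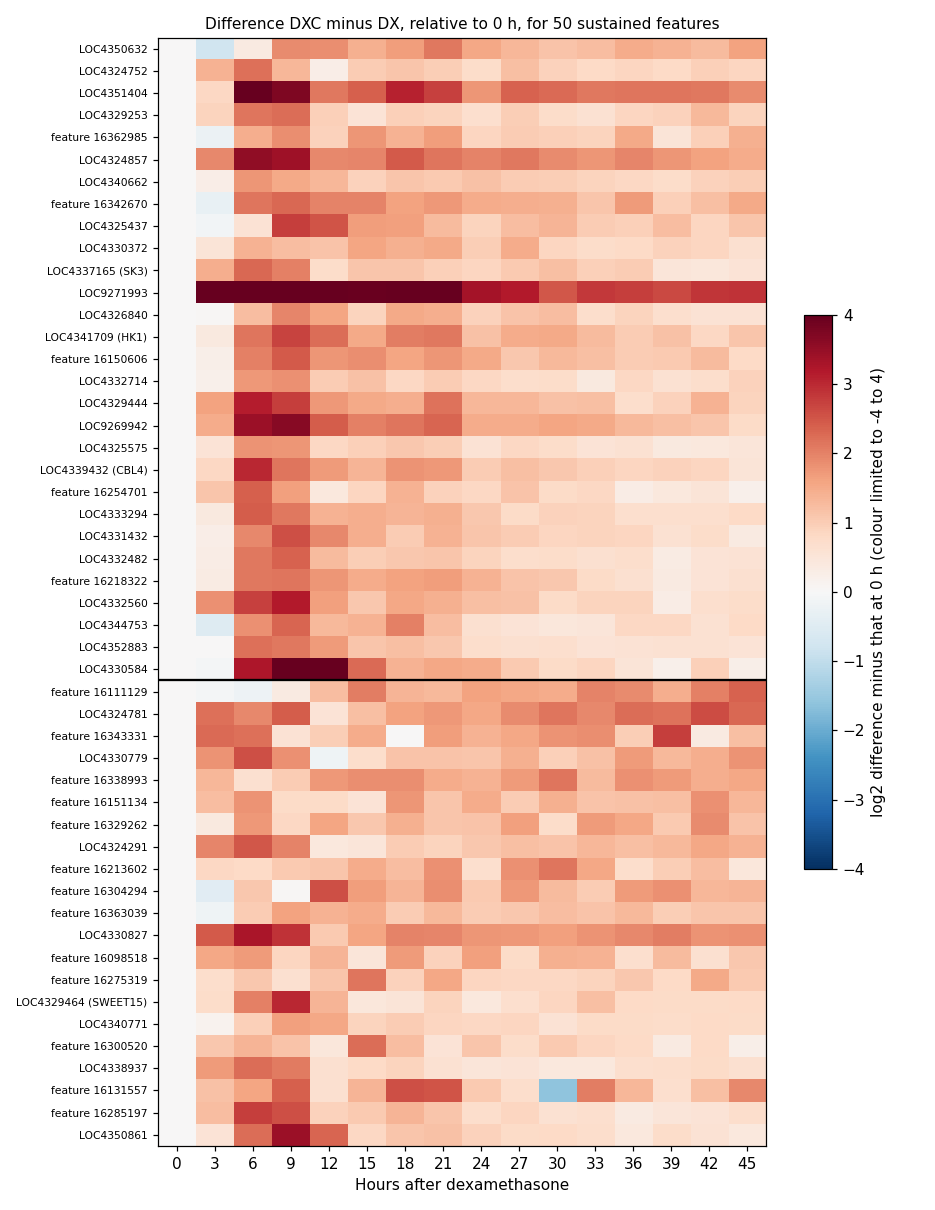
Each row is 1 of the 50 features and each column an hour after dexamethasone; colour gives the net difference (log2, colour limited to -4 to 4). The 29 features above the line had the larger part of their late value at 27 to 45 h and the 21 below it at 0 h; within each block rows run from high to low persistence.

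LOC9271993, a protein-coding gene, had the largest net difference of the 50 both over 6 to 24 h and over 27 to 45 h. Its DXC arrays measured 3.96, 4.23 and 4.18 at 0 h, 9.28, 9.85 and 10.51 at 9 h, and 6.37, 6.74 and 6.47 at 45 h, against 4.75, 4.06 and 4.81, then 4.81, 3.94 and 4.95, then 4.24, 3.90 and 4.05 in DX. The lines overlapped at 0 h and did not overlap at any hour of 6 to 45 h. The net difference peaked at 9 h at 5.73, of which 5.31 was the line difference at that hour and the rest the 0 h difference of -0.42, dropped to 50% of that by 30 h, and averaged 2.80 ± 0.63 over 27 to 45 h (SD over 3 experiments). The DX levels are low ones, with no detection call behind them. The annotation gives no function for this gene, and it could not be settled whether the feature reads CRL1 itself, so its values may be those of the induced transgene.

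LOC4351404, annotated as a transcribed pseudogene, kept more of its peak. On the DXC arrays it measured 3.52, 4.06 and 3.70 at 0 h, 7.83, 7.47 and 8.08 at 6 h, and 5.04, 5.65 and 5.22 at 45 h. The DX arrays measured 3.84, 4.03 and 4.01, then 3.95, 4.05 and 3.90, then 3.58, 3.72 and 3.55 at those hours, and so hardly moved. The net difference was 4.02 at the 6 h peak, 2.14 ± 0.55 over 27 to 45 h (SD, n = 3), and by the 2-hour definition reached 50% of the peak at 45 h. It had been below 50% at 24 h too, at 1.76, and was above it again at 27 to 42 h, between 2.09 and 2.37.

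HK1 (LOC4341709, also named MHZ1), a histidine kinase that acts in the ethylene response of rice roots, stood apart between the lines at every late hour. DXC arrays measured 4.15, 4.45 and 4.34 at 0 h, 6.60, 6.88 and 6.97 at 9 h, and 4.77, 5.22 and 4.72 at 45 h, against 4.12, 4.35 and 4.39, then 3.92, 4.07 and 4.28, then 3.48, 3.88 and 3.90 in DX. All 3 DXC arrays were above all 3 DX arrays at each of the 14 hours from 6 to 45 h. The mean over 27 to 45 h was 5.24 ± 0.43 in DXC and 4.01 ± 0.07 in DX (SD, n = 3 each), the net difference there was 1.20, and 50% decay came at 33 h.

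CBL4 (LOC4339432) belongs to the calcineurin B-like proteins, calcium sensors that bind and activate CIPK protein kinases; its Arabidopsis namesake takes part in salt tolerance. DXC arrays measured 3.70, 3.60 and 4.04 at 0 h, 6.48, 6.81 and 7.02 at 6 h, and 4.33, 4.43 and 4.06 at 45 h, against 3.60, 3.98 and 4.05, then 3.92, 3.57 and 4.02, then 3.81, 3.90 and 3.81 in DX. The lines overlapped at 0 h and stood apart at every hour of 6 to 45 h, though at 45 h the lowest DXC array, at 4.06, was close to the highest DX array, at 3.90. The net difference was 3.03 at its 6 h peak, came down to 50% by 24 h and averaged 0.92 over 27 to 45 h.

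SK3 (LOC4337165) and SWEET15 (LOC4329464) also met the rule, but on an uneven 0 h baseline. SWEET15 is a sugar transporter of the SWEET family, which in rice helps load sucrose into the developing grain. Its DXC arrays measured 3.84, 3.22 and 3.32 at 0 h, 5.69, 6.09 and 6.52 at 9 h, and 3.82, 3.67 and 3.65 at 45 h. The DX arrays measured 3.76, 5.43 and 3.57 at 0 h, 4.03, 3.74 and 3.90 at 9 h, and 3.33, 4.11 and 3.70 at 45 h. At 9 h the lines did not overlap, and at 45 h they did.

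Over 27 to 45 h SWEET15 averaged 3.83 in DXC and 3.78 in DX, a line difference of 0.05, and its late net difference of 0.84 came from the 0 h term of -0.79, where the DX array of experiment 2 was high. With the 0 h difference taken from experiments 1 and 3, the late net difference of SWEET15 was 0.14. For SK3 the DXC arrays at 0 h measured 3.69, 3.51 and 3.58, and the DX arrays 3.09, 5.14 and 3.14. At 6 h they measured 6.40, 6.18 and 6.30 in DXC, against 3.98, 4.90 and 3.66 in DX. At 6 h the lines did not overlap. Unlike SWEET15, SK3 kept a line difference of 0.61 over 27 to 45 h, without overlap of arrays at 4 of the 7 hours. The late net difference of SK3 was 0.81 over all experiments and 0.09 with the 0 h difference from experiments 1 and 3.

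**Figure D3:**
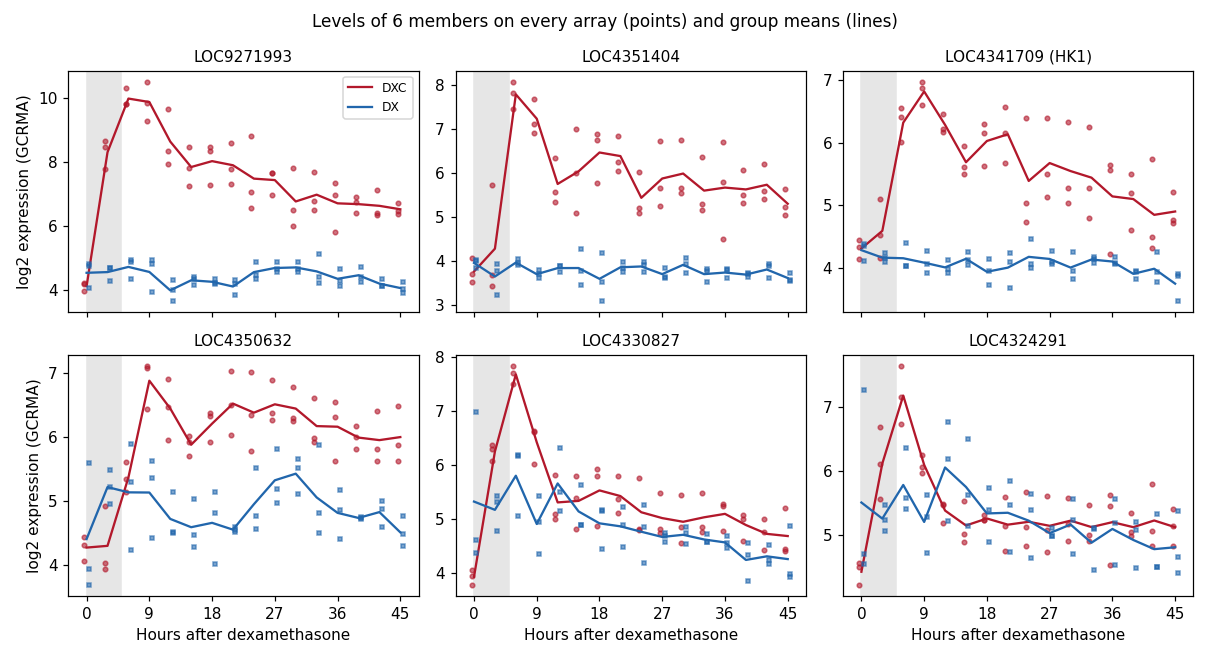
Levels (log2, GCRMA) of 6 of the features are plotted against hours after dexamethasone, with DXC and DX arrays as points and group means as lines; grey marks the 5 h with dexamethasone. In LOC9271993, LOC4351404 and HK1 the DXC arrays lay above the DX arrays at 27 to 45 h, LOC4350632 came up at 9 h and stayed, and in LOC4330827 and LOC4324291 1 DX array at 0 h (6.98 and 7.27) stood above the other two.

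Arrays of the lines did not overlap, DXC above DX, at all 7 hours of 27 to 45 h in 9 of the 50 features, against 0.0791% of all features. At 4 or more of these hours this was so in 25, against 0.589% of all features, and at 45 h in 23, against 5.26%. The rule used these hours, so the counts only describe the members. The 9 were LOC9271993, LOC4351404, LOC9269942, HK1, CBL4, LOC4325437, LOC4350632, LOC4326840 and LOC4340662. In 15 of the 50 the lines overlapped at every one of the 7 hours.

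LOC4340662, another of these 9, already differed at 0 h. Its DXC arrays read 7.05, 7.41 and 7.39 at 0 h and 8.08, 8.52 and 8.28 at 45 h, against 6.42, 7.07 and 7.10, then 6.36, 7.12 and 7.20 in DX. DXC was 0.42 higher on average at 0 h, where the arrays overlapped, and the line difference over 27 to 45 h was 1.32. LOC4325437 and LOC4326840 differed by -0.15 and -0.04 at 0 h and had late net differences of 1.12 and 0.83.

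LOC4350632 had a later and flatter course than most. In DXC the arrays measured 3.94, 4.03 and 4.93 at 3 h, 6.50, 6.03 and 7.03 at 21 h, and 5.88, 6.49 and 5.62 at 45 h, against 5.48, 4.96 and 5.21, then 4.55, 4.59 and 4.52, then 4.29, 4.76 and 4.48 in DX. DXC was below DX at 3 h and above it at 21 and 45 h, without overlap. Its onset was at 9 h and its peak at 21 h, its persistence was 0.87, and it had not decayed to 50% by 45 h.

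LOC4330584 had the lowest persistence of the 50, at 0.24. Levels on the DXC arrays were 4.83, 4.73 and 4.41 at 0 h, 9.50, 9.58 and 10.25 at 9 h, and 4.93, 4.98 and 4.45 at 45 h, against 5.25, 4.80 and 4.63, then 5.12, 4.88 and 4.96, then 4.84, 5.06 and 4.45 in DX. The net difference at 9 h was 5.02, and at 45 h it was 0.24, with the lines overlapping. It passed the late minimum with a mean of 0.66, and its decay to 50% came at 15 h. LOC4350861, feature 16285197 and LOC4352883 followed, with persistence values of 0.37, 0.41 and 0.41. In experiments 1, 2 and 3 their late net differences were 0.47, 0.18 and 1.24 in LOC4350861, -0.11, 1.49 and 0.45 in feature 16285197, and 0.60, 0.74 and 0.44 in LOC4352883.

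LOC9269942, LOC4324857 and LOC4329444 lay between these extremes. Their net differences peaked at 3.64, 3.54 and 3.14 at 6 or 9 h, and over 27 to 45 h they averaged 1.28, 1.80 and 1.09. The late difference between the lines without the 0 h term was 1.29, 0.91 and 0.84. In experiments 1, 2 and 3 the late net difference of LOC4324857 was 0.39, 2.71 and 2.28, and its 0 h difference was -0.14, -1.91 and -0.60. In LOC9269942, DXC arrays measured 7.23, 7.44 and 7.39 at 9 h and 5.18, 5.13 and 4.88 at 45 h, against 3.66, 4.05 and 3.39, then 4.17, 4.63 and 4.01 in DX, with no overlap at either hour.

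The late net difference has a part measured at 27 to 45 h and a part measured at 0 h, where DXC lay below DX in many of the 50. In 29 features the larger part was the line difference at 27 to 45 h, whose median was 0.79 in them. In the other 21 it was the 0 h difference, whose median was -0.95, while the median line difference at 27 to 45 h was 0.21. Of the features without a gene symbol 13 of 18 were of this second kind, and of those with one 8 of 32.

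The courses of the 29 and the 21 are given side by side with no test, since the 0 h values that divide them also enter the net difference. In the 29 the peak came at 6 or 9 h in 27, the level change since 0 h was mainly higher DXC in 29, and the median persistence was 0.60. In the 21 the peak came at 6 or 9 h in 9, the change was mainly higher DXC in 11 and mainly lower DX in 10, and the median persistence was 0.90. 7 of the 21 and 3 of the 29 had not decayed to 50% by 45 h. The median net difference at 3 h was 1.16 in the 21 and 0.38 in the 29, so the 0 h part also bears on onset.

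**Figure D4:**
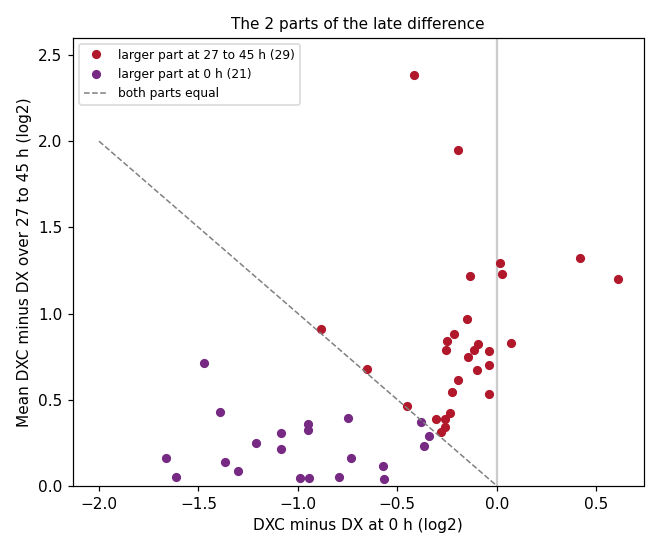
For each of the 50 features the mean line difference over 27 to 45 h (vertical axis, log2) is plotted against the line difference at 0 h (horizontal axis, log2). The 29 features above the dashed line of equal parts had a median late line difference of 0.79, and the 21 below it 0.21.

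The features with the highest persistence were of the second kind. Feature 16111129 had a persistence of 1.66. The DXC arrays gave 5.08, 4.65 and 4.38 at 0 h and 6.22, 6.06 and 5.48 at 45 h, against 6.00, 4.45 and 8.65, then 5.10, 5.33 and 5.20 in DX. The DX array of experiment 3 was high at 0 h, the lines overlapped at that hour, and at 45 h they did not. Over 27 to 45 h the line difference was 0.16.

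In feature 16338993 the late net difference was 1.66 and the line difference over 27 to 45 h 0.05. At 0 h its DXC arrays measured 3.16, 2.86 and 2.77 and its DX arrays 3.12, 4.93 and 5.57. At 45 h they were 3.39, 2.54 and 2.78 in DXC and 3.18, 2.92 and 2.84 in DX, and overlapped. Feature 16343331 and LOC4330779 had persistence values of 1.27 and 1.18, late net differences of 1.51 and 1.39, and late line differences of 0.14 and 0.31. Their late net differences in experiments 1, 2 and 3 were 1.22, 1.71 and 1.58 and 0.68, 2.52 and 0.98.

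LOC4324781 had a late net difference of 2.18, second of the 50, with a persistence of 1.39. Its DXC arrays measured 5.69, 5.03 and 4.56 at 0 h and 6.62, 6.50 and 7.86 at 45 h, against 5.78, 7.99 and 5.92, then 6.23, 7.27 and 5.00 in DX. The lines overlapped at both hours, and at all 7 hours of 27 to 45 h. The late line difference was 0.71, and by experiment it was 0.15, -0.34 and 2.32. LOC4330827, with a late net difference of 1.82, was higher in DXC over 27 to 45 h in each experiment, by 0.21, 0.35 and 0.73.

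Several 0 h differences were far larger in 1 experiment than in the other two. The line difference at 0 h was -1 or lower in 4, 19 and 7 of the 50 features in experiments 1, 2 and 3, against 1.62%, 1.42% and 2.55% of all features. The rule subtracts the 0 h difference and so favours low ones, and these counts only describe the members. In 16 of the 19 the DX array of experiment 2 at 0 h was above both other DX arrays of that hour, and in 12 by 1 or more, as in 1.46% of all features. The 19 were themselves picked by the difference in experiment 2, so that share is no measure of an excess. LOC4330827 measured 4.06, 3.96 and 3.79 in DXC at 0 h, against 4.62, 6.98 and 4.38 in DX. LOC4324291 measured 4.55, 4.49 and 4.21 in DXC, against 4.54, 7.27 and 4.70 in DX.

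With the 0 h difference taken from experiments 1 and 3, 42 of the 50 still had a late net difference of 0.5 or more. The 8 below were LOC4332560, LOC4338937, LOC4337165, LOC4329464, LOC4324291, LOC4324752 and features 16131557 and 16285197. LOC4332560 and LOC4338937 were then at -0.11 and -0.27. The rule run with that 0 h difference chose 29 of the same 50, and with no subtraction of 0 h it chose 22. LOC9271993, LOC4351404 and HK1 had late values of 3.09, 2.26 and 1.23 without experiment 2 at 0 h.

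Sampling at 3 h was the one hour the rule did not use, and there the lines were tested directly. In the limma fit over all arrays, with Benjamini-Hochberg adjustment over all features, 3 of the 50 were higher in DXC, against 0.0628% of all features, and 0 were lower, against 0.03%. Before adjustment, p was under 0.05 and DXC higher in 16 of the 50, against 20.3% of all features, and DXC lower in 7, against 14.2%. DXC was above DX in mean in 32 of the 50, against 54.1%, and without overlap of arrays in 16, against 16.4%.

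LOC9271993 was already high at 3 h. Its DXC arrays measured 7.79, 8.67 and 8.47 at that hour, against 4.70, 4.28 and 4.70 in DX. The lines were far apart, while at 0 h they had overlapped. The difference was 3.75 (SE 0.40, limma adjusted p = 1.68e-09), a 13.4-fold difference.

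Feature 16254701 and LOC4332560 were the other two called at 3 h. Feature 16254701 measured 6.93, 7.50 and 6.93 in DXC, against 5.01, 5.91 and 5.31 in DX, a difference of 1.71 (SE 0.37, limma adjusted p = 0.0337). LOC4332560 measured 8.52, 8.75 and 8.66 in DXC, against 6.99, 7.57 and 6.20 in DX, a difference of 1.72 (SE 0.39, limma adjusted p = 0.0403). Both calls were without overlap between the lines. At 0 h feature 16254701 was 0.61 higher in DXC, and LOC4332560 was 0.78 higher in experiments 1 and 3 and 1.87 lower in experiment 2.

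Only the call for LOC9271993 held in every setting tried at 3 h. The call for feature 16254701 was lost without experiment 1 (difference 1.60, adjusted p = 0.264) and without experiment 3 (difference 1.75, adjusted p = 0.26), in fits of fewer arrays with differences near that of the full data, and that for LOC4332560 in these 2 settings (differences 1.82 and 1.35, adjusted p = 0.289 and 0.302) and after quantile normalization (adjusted p = 0.065). With the arrays of 0 to 9 h alone both were lost (adjusted p = 0.092 and 0.173). With experiment as a block, 11 of the 50 were called higher and 4 lower, while 3452 and 1923 of all features were. SK3 was 1.25 higher at 3 h (adjusted p = 0.0587), CBL4 0.74 (adjusted p = 0.08) and HK1 0.43 (adjusted p = 0.309) in the fit without the block, and none of these was called.

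Arrays of DXC at 0 to 9 h were also spread more widely than those of DX. The SD over features averaged 1.65 in DXC and 1.52 in DX at 0 to 9 h, and 1.57 and 1.58 at 36 to 45 h. With all features split into 4 equal classes by mean level, the median line difference at 0 to 9 h was 0.35 in the brightest class and -0.12 in the dimmest, and at 12 to 45 h it was between 0.00 and 0.01 in all 4. From dim to bright, the classes held 5, 10, 22 and 13 of the 50 features. Arrays of 1 line and experiment were also grouped, for 1 fit, into blocks of 4 neighbouring sampling times. The first block ended at 9 h and the second began at 12 h. The estimated correlation within a block was 0.44. It was not compared with that between blocks, so a likeness over the whole course of an experiment cannot be told apart from one within blocks. The labels name no batch for these blocks, and the drop between 9 and 12 h falls at the edge of 2 of them. The part of the shift and of the blocks in the values of the 50 features was not tested. After quantile normalization all 50 kept a late net difference of 0.5 or more, and the rule chose 46 of the same 50.

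The choice was repeated with 1 experiment left out, and the net difference was then read in that experiment, which had no part in it. Chosen on experiments 2 and 3, the 50 features had a median late net difference of 1.56 there and 0.19 in experiment 1, where 17 of 50 were at 0.5 or more, against 14.3% of all features. Chosen on experiments 1 and 3, the medians were 1.02 there and 0.59 in experiment 2, with 25 of 50 at 0.5 or more, against 13.3%. Chosen on experiments 1 and 2, they were 1.27 there and 0.59 in experiment 3, with 28 of 50, against 8.8%. In each case the left-out experiment gave a smaller median than the choosing ones.

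Over 6 to 24 h the left-out experiments gave medians of 0.53, 1.07 and 1.20, with 25, 34 and 32 of 50 at 0.5 or more, against 5.51%, 9.98% and 8.09% of all features. At 45 h their medians were 0.27, 0.71 and 0.30. At 9 h they were 0.63, 1.82 and 1.49.

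**Figure D5:**
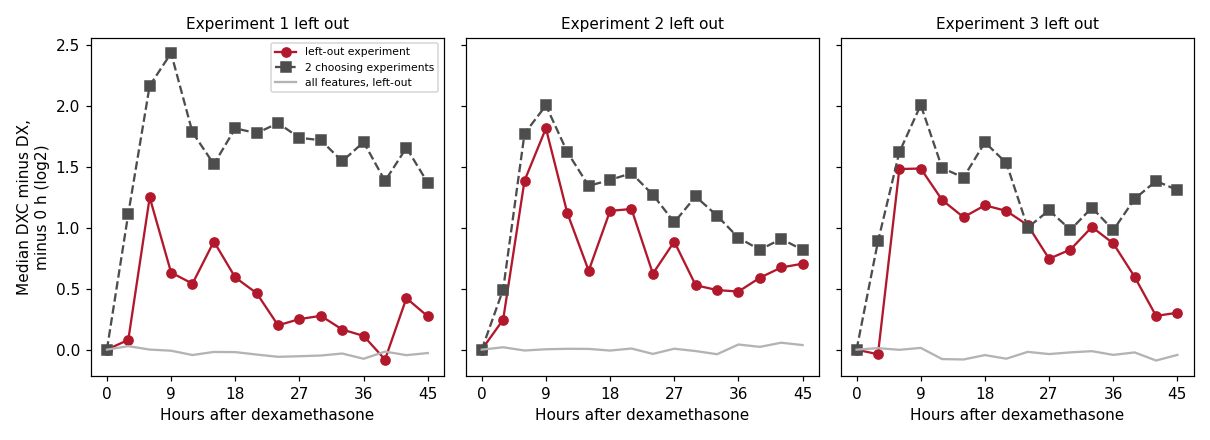
In each panel the rule was run on 2 experiments, and the median net difference (log2) of the 50 features it chose is plotted by hour after dexamethasone in the left-out experiment, in the choosing experiments and, for all features, in the left-out experiment. At 45 h the left-out medians were 0.27, 0.71 and 0.30, with the choosing medians at 1.37, 0.82 and 1.31.

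The left-out choices shared 32, 28 and 30 features with the 50, and 18 of the 50, 14 of them with a symbol, were chosen every time. These were LOC9271993, LOC4351404, LOC4330584, LOC9269942, LOC4324857, LOC4330827, LOC4329444, HK1, CBL4, LOC4331432, LOC4325437, LOC4333294, LOC4352883, LOC4326840 and features 16342670, 16150606, 16218322 and 16362985. In the left-out experiment itself, LOC9271993, LOC4351404, LOC9269942 and feature 16342670 had a late net difference of 1 or more each time. For the 50 chosen on all the data, 41 had a late net difference above 0 in all 3 experiments, against 17.0% of all features, and 9 in 2 of them. The choice used these experiments, so this count is only a description.

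The comparison set was the 50 features with the largest mean net difference over 6 to 24 h among those that missed the late conditions. Its mean over 6 to 24 h had a median of 1.13, with 1.41 in the sustained 50. Onset was at 3 or 6 h in 44 of the sustained and 30 of the comparison features, and after 6 h in 6 and 20. The peak came at 6 or 9 h in 36 and 27. Decay to 50% was reached in 40 and 41, and persistence was 1 or more in 10 and 9. The late net difference of the comparison features ran from -0.52 to 2.41 with a median of 0.45. Their late line difference had a median of -0.01. A feature could thus miss the late conditions with a late net difference above 0.5, where DXC was not above DX. At 3 h, 3 of the sustained and 0 of the comparison features were called higher by limma, against 0.0628% of all features. Before adjustment, 16 and 7 were higher with p under 0.05, against 20.3% of all features, and 7 and 4 were lower, against 14.2%. None of these differences between the sets was tested.

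Features at the edges of the rule were alike on both sides. By the mean over 6 to 24 h the last inside were feature 16111129 at 1.10 and LOC4324752 at 1.09, and the first outside were feature 16116836 and the MADS-box gene MADS17 (LOC4336762), both at 1.09. By the late mean the last inside were LOC4325575 at 0.58 and LOC4352883 at 0.60. The nearest outside that had a large enough mean over 6 to 24 h were LOC4336268 at 0.46 and LOC4347221 at 0.44.

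Of the 32 named features, 29 were protein coding, LOC4333294 and LOC4344753 were long noncoding RNAs, and LOC4351404 was the pseudogene. LOC4333294 and LOC4344753 peaked at 2.42 at 6 h and 2.34 at 9 h, reached 50% by 24 h, and had late net differences of 0.77 and 0.65. Among the 32 genes 0 pairs had at most 9 genes between them in the reference table. No expected number of pairs was computed, so this count gives no verdict on clustering. Among the other members with a symbol, LOC4332482, LOC4332714, LOC4329253, LOC4330372, LOC4331432 and LOC4340771 had late net differences of 0.60 to 0.90 and peaks at 9 or 15 h. The 8 features 16304294, 16329262, 16363039, 16098518, 16213602, 16275319, 16300520 and 16151134 had late net differences of 0.69 to 1.46 and late line differences of 0.05 to 0.39, and in all 8 the larger part lay at 0 h. In feature 16131557 1 DX array, that of experiment 3 at 30 h, stood at 10.22, while the other two DX arrays of that hour measured 3.26 and 5.06.

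None of the 50 belonged to the lists of crown root initiation and root patterning, auxin response, cell wall loosening or DNA replication genes, which together held 149 features. For these the windows were tested with limma, each minus the 0 h difference. Over 3 to 9 h 2 of the 149 were higher and 0 lower, against 0.308% and 0.0246% of all features, over 12 to 24 h 0 were higher and 3 lower, against 0.131% and 0.216%, and over 27 to 45 h 0 were higher and 4 lower, against 0.0655% and 0.183%.

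Counts before adjustment, with p under 0.05, also leaned to the lower side in the auxin list at the later hours. At 3 to 9 h they were 2 higher and 1 lower of 17 crown root genes, 8 and 1 of 63 auxin genes, 5 and 3 of 42 wall genes, and 7 and 0 of 28 replication genes, against 3.63% and 2.79% of all features. At 12 to 24 h they were 2 and 2, 3 and 13, 4 and 7, and 0 and 1 in the same lists, against 4.8% and 7.1%. At 27 to 45 h they were 1 higher and 3 lower of 17 crown root genes, 2 and 13 of 63 auxin genes, 3 and 7 of 42 wall genes, and 1 and 0 of 28 replication genes, against 5.73% and 6.36% of all features. Each window value subtracts the 0 h difference, whose median was 0.23 in the brightest class of features and -0.09 in the dimmest. The summed log2 level of the auxin list at 0 h had a median of 11.99 in DXC and 11.84 in DX, with overlap. The part of this 0 h term in the list counts was not tested.

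The crown root gene called was WOX11, a homeobox transcription factor that promotes crown root emergence and growth in rice. Its mean net difference was -1.25 over 27 to 45 h (limma adjusted p = 0.00227) and -1.23 over 12 to 24 h (limma adjusted p = 0.00273). Neither difference was called when experiment 2 (adjusted p = 0.33 and 0.3) or experiment 3 (adjusted p = 0.182 and 0.359) was left out. Such a value compares the lines relative to 0 h and is not a change within DXC alone. The auxin genes called were Aux/IAA repressors. Over 12 to 24 h the mean net difference was -0.93 in IAA15 (adjusted p = 0.00113) and -0.71 in IAA24 (adjusted p = 0.0332). Over 27 to 45 h it was -0.85 in IAA15 (adjusted p = 0.00298), -1.05 in IAA31 (adjusted p = 0.0202) and -1.04 in the IAA1 feature of LOC4334069 (adjusted p = 0.0417). Another feature listed as IAA1, LOC4323871, differed by -0.26 over 27 to 45 h and was not called (adjusted p = 0.42). With sets of 4 hours as a random block IAA31 (adjusted p = 0.0744), LOC4334069 (adjusted p = 0.11) and IAA24 (adjusted p = 0.189) were no longer called, and after quantile normalization IAA31 (adjusted p = 0.0578) and LOC4334069 (adjusted p = 0.0885) were not. Without experiment 2 or 3, 0 of the 149 were called in either window, in the fit without experiment 1, 2 were lower over 12 to 24 h and 1 over 27 to 45 h, and with experiment as a block 5 were lower over 12 to 24 h and 7 over 27 to 45 h. The medians of the 4 lists over 27 to 45 h were -0.16, -0.09, 0.04 and -0.02, with -0.02 over all features.

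Over 3 to 9 h GH3.1, an enzyme gene of the auxin-conjugating GH3 family, had a mean net difference of 1.26 (limma adjusted p = 0.011). That of the replication factor gene OsRFC1 was 0.86 (limma adjusted p = 0.0218). Their mean net differences over 27 to 45 h were 0.21 and 0.10, below the late minimum that the 50 sustained features met, and neither was called there (adjusted p = 0.725 and 0.823). Whether the calls over 3 to 9 h hold in other settings was not tested.

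Markers of leaf and seed tissue, and of the shoot meristem that a stem base itself holds, did not pass the test in any window. Of 6 leaf photosynthesis, 13 seed and 8 KNOX genes, the last marking the shoot meristem, 0 were called by limma over 27 to 45 h, and 0, 0 and 2 were higher and 2, 1 and 2 lower before adjustment, against 5.73% and 6.36% of all features. The leaf list had a median late difference of -0.40, with -0.02 over all features. Its summed log2 level at 0 h ran from 9.68 to 9.93 on the DXC arrays and from 9.16 to 9.59 on the DX arrays, without overlap, and at 27 to 45 h from 8.55 to 9.61 in DXC and from 8.70 to 9.67 in DX. That 0 h difference enters the list's own late value, and 0 h also enters the net differences of the 50 features. At 27 to 45 h the seed list ran from 8.22 to 8.56 in DXC and from 8.18 to 8.55 in DX, and the KNOX list from 7.59 to 8.13 in DXC and from 7.86 to 8.22 in DX, and the part of these tissues in the values of the 50 features was not tested.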

How the data were processed

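Values were log2 levels as deposited, for 36643 features on each of 96 arrays, and the authors had normalized them with GCRMA, per the submitters' processing notes, which name no version or setting. GCRMA corrects background from probe sequence, so low values are compressed toward a floor, and no detection call stands behind a value. The number of arrays limits the precision. By the array annotation 24161 features had a single gene symbol, 90 had more than one and 12392 had none; the RefSeq gene table of assembly ASM3414082v1 served only for synonyms, biotypes and gene order.

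The members and gene lists were chosen with earlier results of these data known. Net differences, onset, peak, decay and persistence were computed in Python 3.11.15 (pandas 2.3.3) from group means. Tests used limma 3.58.1 in R 4.3.3 (lmFit, then eBayes with an intensity trend) on all 32 groups of line and hour with 64 residual degrees of freedom, two-sided, and features were called at a Benjamini-Hochberg adjusted p under 0.05. The fit was also run on simulated data with independent noise, without the line shift or the blocks of arrays, so it cannot show how the fit does with those. There 65% of true 3 h differences of 1 (log2) and 98% of those of 2 were called. In the late window it was 66% and 96%. Given by array or by experiment were the 8 members with the largest late mean and those with a symbol other than a LOC number. So were those called at 3 h and the 4 highest and 4 lowest in persistence. Other members given array by array, such as LOC4340662, LOC4350632, LOC9269942 and LOC4324291, were picked after their values were seen. Of the lists, genes called were named.

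The series' design text gives the replicate numbers as independent experiments, which pairs the lines. Residuals from the group means were compared between the DXC and the DX array of the same hour and experiment: their correlation averaged 0.05 over 48 such pairs, was -0.64 at the lowest and exceeded 0.1 in 16. Arrays of 1 group correlated at 0.971 (median), and no 2 arrays above 0.989. Alternatives were quantile normalization, experiment as a block, sets of 4 hours as a random block, fewer arrays, a filter on dim features, other limits in the rule and leaving out each experiment; the 0 h difference from experiments 1 and 3 was added after seeing the data. Each sample pooled several stem bases of 1 experiment.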

Additional observations from a re-analysis of the deposited data

How the results depend on the processing

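The count of features higher in DXC at 3 h was 23 in the fit as reported. With experiment as a replicate block, the pairing that the design text gives, it was 3452, with sets of 4 hours as a random block 3748, with the arrays of 0 to 9 h alone 5, with dim features left out 123, and without 1 experiment between 1 and 3579. The count of the 50 members called higher at 3 h was 3; it was 11 with the replicate block, 12 with sets of hours, 1 with 0 to 9 h alone, 5 with dim features left out, and 1 to 8 without 1 experiment. Listed genes called in the middle or late window numbered 5, then 3 after quantile normalization, 2 with sets of hours, 7 with the block, and 0 to 2 without 1 experiment. The rule shared 22 features with the 50 when 0 h was not subtracted, 29 with the 0 h difference of experiments 1 and 3, 24 with a late minimum of 1.0, and 28 to 32 without 1 experiment. Median persistence was 0.68 and became 0.51 with no subtraction of 0 h. The number of members that decayed to 50% stayed between 38 and 46. Onset at 3 or 6 h, seen in 44, was recomputed only with a fixed limit of 1.0 and with the 0 h difference of experiments 1 and 3. It was 45 in each. Onset with no subtraction of 0 h, after quantile normalization or without 1 experiment was not computed. The cause of these shifts was not tested. No direction reversed among the single features tested at 3 h or in the windows. Groups of 3 arrays and the absence of scanner background values limit all of these values.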
